A study of Mus musculus with 10 samples.

Results

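The Nrf2 target antioxidant genes described here are 10 genes: Nfe2l2, which encodes the transcription factor Nrf2, and Gclc, Gclm, Nqo1, Hmox1, Txnrd1, Srxn1, Gpx1, Gpx2 and Prdx1. They were chosen by gene symbol as members of the Nrf2 antioxidant response. Each symbol matched 1 row of the deposited table of 55487 genes. All 10 passed the filter of a mean of at least 1 TPM (a level scaled for transcript length and to a fixed total within each library), which left 12870 genes to be tested.

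RNA was sequenced from intestinal epithelial cells (IECs) of the colon of wild type (WT) and RhoB-/- mice on the C57BL/6J strain, in 5 libraries per genotype. Nothing in the sources says outright that each library is a separate mouse, so the p-values measure the spread between libraries, part of which may be technical. RhoB-/- mice carry a homozygous knockout of Rhob, which encodes a small GTPase, and the labels give no treatment for either group. By the study's methods the knockout line was made at a model organism centre and male WT mice were bought from another supplier, and for WT mice from that source genotype and origin cannot be told apart. The labels give neither age nor sex, and the methods give young adult mice for experiments where nothing else is stated.

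Nrf2 is a basic leucine zipper factor that is held in the cytoplasm and sent for degradation by Keap1, a cysteine-rich adaptor of a ubiquitin ligase. When oxidants or electrophiles modify Keap1, Nrf2 escapes degradation, pairs with a small Maf protein in the nucleus and binds antioxidant response elements of its target genes. These genes make and use glutathione and thioredoxin, reduce quinones and break down heme. Nrf2 is controlled mainly through the stability of its protein, so the level of Nfe2l2 mRNA is not a measure of its activity. In the colon these genes serve an epithelium that faces food, bacteria and their products.

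The motif TGACNNNGC, the core of the antioxidant response element, was searched for on both strands in the RefSeq promoter windows of GRCm38.p6, which run from 250 bases before to 50 bases after a gene's start. It was found in 4071 of 32851 windows (12.4%). Of the 10 genes, 8 had a window and 5 had a match, while Gclc and Hmox1 had no window in the table. No match was found in the windows of Nqo1, Gpx1 and Gpx2, which says only that these letters are not in those windows. Each match follows with 10 bases on each side, read 5′ to 3′ on the strand of the gene, because Srxn1 and Prdx1 are compared as a pair in the results and because Me1 and Gsta3, other genes of the pathway, moved in opposite directions. Capitals mark the motif, which lies on the strand opposite to the gene in Gclm, Txnrd1, Srxn1 and Prdx1. Me1 had a further window (chr9:86687228-86687527) without a match, so its start below is that of the other window.
Nfe2l2, chr2:75704885-75704913, minus strand, 240 bases before the start: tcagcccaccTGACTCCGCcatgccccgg
Gclm, chr3:122245413-122245441, plus strand, 134 bases before the start: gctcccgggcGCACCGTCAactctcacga
Txnrd1, chr10:82859104-82859132, plus strand, 92 bases before the second of its 3 listed starts, inside the gene: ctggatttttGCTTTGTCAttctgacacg
Srxn1, chr2:152105542-152105570, plus strand, 28 bases after the start: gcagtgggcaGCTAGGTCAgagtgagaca
Prdx1, chr4:116685456-116685484, plus strand, 133 bases before the start: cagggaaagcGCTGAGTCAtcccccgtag
Me1, chr9:86695902-86695930, minus strand, 6 bases before the start: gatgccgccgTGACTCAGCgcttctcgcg
Gsta3, chr1:21240454-21240482, plus strand, 121 bases before the start: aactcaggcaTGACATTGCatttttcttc
The matched bases of Prdx1 and Me1 were the same when read on the motif's strand, TGACTCAGC. A match is a description of sequence and was not tested as a binding site.

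The genotype difference was uneven among the 10 genes. In RhoB-/- mice Srxn1, which encodes the enzyme that repairs over-oxidised peroxiredoxins, was higher, while Hmox1, which encodes the inducible heme oxygenase, and Nqo1, which encodes a quinone reductase, were lower. The other 7 genes were not called. A gene was called at a Benjamini-Hochberg adjusted p below 0.05, from limma on log2(TPM + 1) over all tested genes. Thus 3 of the 10 genes were called, beside 21.2% of all 12870 tested genes, of which 7.73% were higher and 13.5% lower. Requiring also a fold change above 1.5 left Srxn1 higher and Hmox1 lower, beside 5.58% and 7.13% of all tested genes. The median log2 fold change was -0.04 for the 10 genes and -0.13 for all tested genes, so that a value of 0 lies slightly above the typical gene. With each library recentred on its median the same counts of 1 higher and 2 lower were obtained for the 10 genes, while the split over all tested genes turned from 995 higher and 1734 lower to 2004 higher and 1608 lower.

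**Figure D1:**
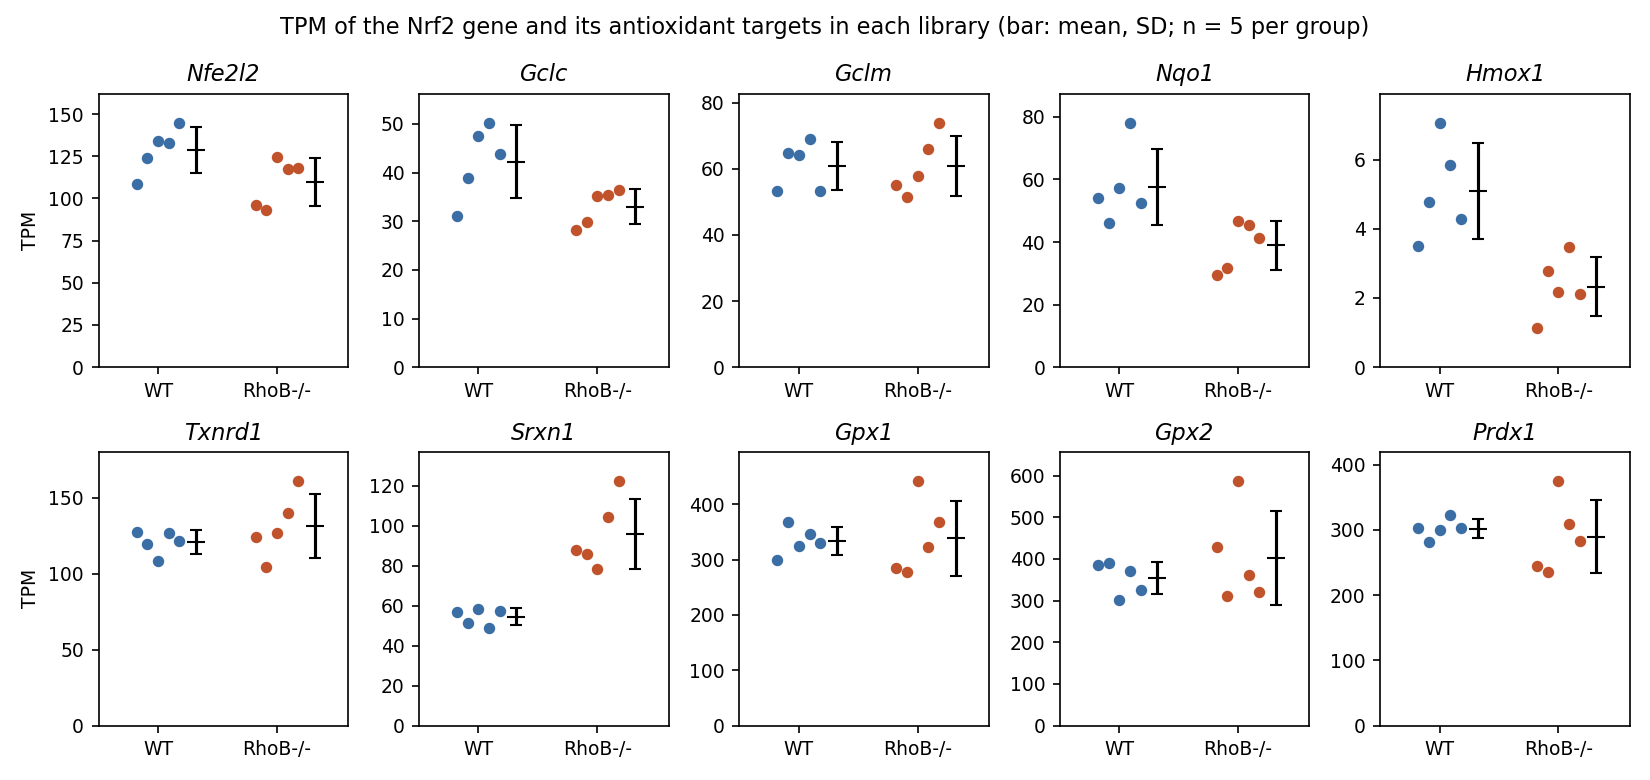
TPM (vertical axis, from 0) of the 10 genes in each of 5 WT (blue) and 5 RhoB-/- (orange) libraries, 1 point per library, with the mean and SD as a bar. Srxn1 and Hmox1 are the 2 genes whose groups do not overlap, Srxn1 with all RhoB-/- libraries at or above 78.4 TPM and Hmox1 with all RhoB-/- libraries at or below 3.47 TPM.

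**Figure D2:**
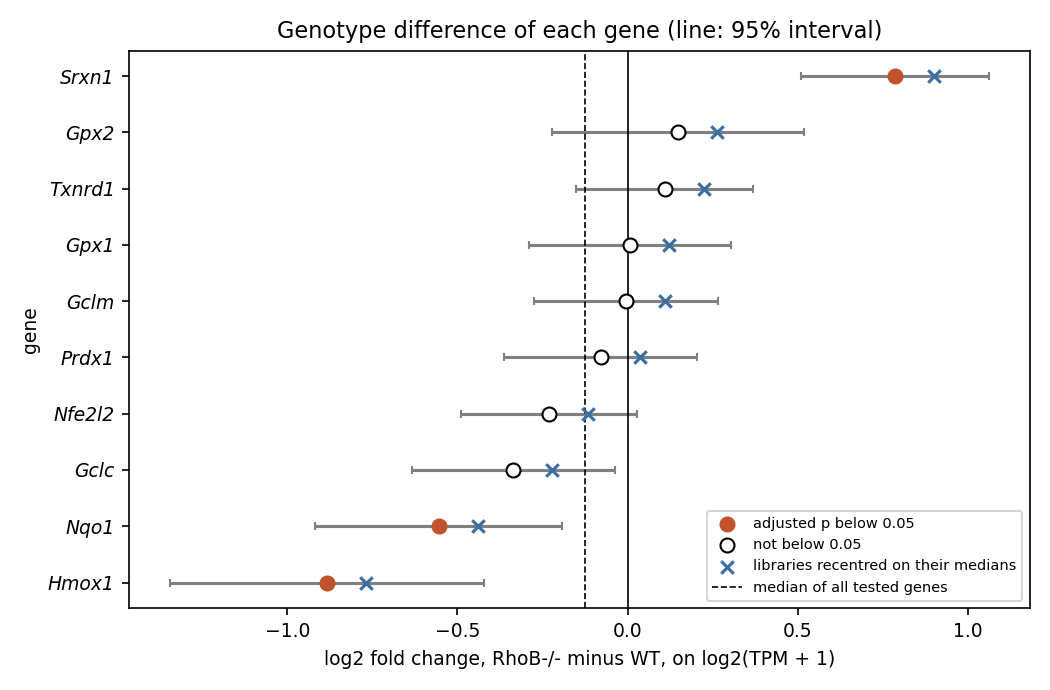
Log2 fold change (RhoB-/- minus WT, on log2(TPM + 1)) of the 10 genes with its 95% interval. Filled points have an adjusted p below 0.05, crosses give the value after recentring each library on its median, and the dashed line is the median of all tested genes, -0.13.

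Srxn1 (chromosome 2, 152105516 to 152111376, plus strand, GRCm38) encodes sulfiredoxin, which uses ATP to restore peroxiredoxins whose catalytic cysteine has been over-oxidised. Its TPM was 56.9, 51.5, 58.2, 48.7 and 57.4 in WT replicates 1 to 5, and 87.7, 85.8, 78.4, 104.3 and 122.1 in RhoB-/- replicates 1 to 5. No WT library reached the lowest RhoB-/- library. The means were 54.5 ± 4.18 TPM (SD, n = 5) in WT against 95.7 ± 17.6 TPM (SD, n = 5) in RhoB-/- mice, a ratio of 1.75. The log2 fold change was 0.79 (standard error 0.13, 95% interval 0.51 to 1.06, limma adjusted p = 0.00156). Groups without overlap and higher in RhoB-/- mice were found for 5.97% of all tested genes. Without RhoB-/- replicate 5, the library in which Srxn1 was highest, the log2 fold change was 0.69 (limma adjusted p = 0.00259). The adjusted p ranged from 9.57e-04 to 0.0066 over the 17 alternative fits.

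Prdx1 encodes an abundant peroxiredoxin, a substrate of sulfiredoxin that reduces hydrogen peroxide. Its TPM was 302.0, 282.1, 299.96, 322.3 and 302.0 TPM in WT replicates 1 to 5 and 245.0, 235.1, 374.3, 308.6 and 283.2 TPM in RhoB-/- replicates 1 to 5. RhoB-/- libraries lay on both sides of the narrow WT range, and their SD was 56.0 TPM beside 14.2 TPM in WT. The log2 fold change was -0.08 (95% interval -0.36 to 0.20, limma adjusted p = 0.685), and it turned to 0.04 after recentring. Within each library the ratio of Srxn1 to Prdx1 does not depend on the library's scaling. This ratio was 0.188, 0.182, 0.194, 0.151 and 0.190 in WT against 0.358, 0.365, 0.210, 0.338 and 0.431 in RhoB-/- mice. It was higher in every RhoB-/- library than in every WT library, by 1.84-fold (0.88 on the log2 scale, exact two-sided permutation test, p = 0.00794, the smallest that 5 libraries against 5 allow, and 0.0159 after Benjamini-Hochberg adjustment over 4 ratios). The lowest RhoB-/- value, in replicate 3, came from the library with the highest Prdx1.

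Txnrd1 encodes the cytosolic thioredoxin reductase, a selenoprotein that keeps thioredoxin and, through it, the peroxiredoxins reduced. Its TPM was 127.5, 119.5, 108.0, 127.0 and 121.6 in WT against 124.3, 104.6, 126.6, 140.2 and 160.7 in RhoB-/- mice. The groups overlapped, with the highest and the lowest of all libraries both in RhoB-/- mice. The log2 fold change was 0.11 (95% interval -0.15 to 0.37, limma adjusted p = 0.532). Reads of Eid3, an overlapping gene on the same strand with a mean of 1.502 TPM, could be counted in part with Txnrd1.

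Hmox1 (chromosome 8, 75093621 to 75100589, plus strand) encodes the enzyme that opens heme into biliverdin, carbon monoxide and iron. It was the least abundant of the 10 genes, with 3.50, 4.77, 7.06, 5.84 and 4.27 TPM in WT against 1.14, 2.77, 2.17, 3.47 and 2.10 TPM in RhoB-/- mice. The groups did not overlap, but the highest RhoB-/- value lay just under the lowest WT value. Mean TPM was 5.09 ± 1.39 (SD, n = 5) in WT against 2.33 ± 0.864 (SD, n = 5) in RhoB-/- mice, 2.18 times higher in WT. The log2 fold change was -0.88 (standard error 0.21, 95% interval -1.34 to -0.42, limma adjusted p = 0.0135), a scale on which the change of so low a gene is understated. Lower groups without overlap were found for 8.55% of all tested genes. The call was kept under all 17 alternative fits, with an adjusted p from 0.00618 to 0.0436. TPM keeps no depth, so the number of reads behind these low values and their counting error are unknown.

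Nqo1 (chromosome 8, 107388225 to 107403206, minus strand) encodes a flavoprotein that reduces quinones with NAD(P)H. It had 54.1, 46.1, 57.4, 78.1 and 52.3 TPM in WT against 29.4, 31.7, 46.7, 45.4 and 41.4 TPM in RhoB-/- mice. The groups overlapped at 1 pair of libraries, WT replicate 2 and RhoB-/- replicate 3. The log2 fold change was -0.56 (standard error 0.17, 95% interval -0.92 to -0.19, limma adjusted p = 0.0352), and -0.44 after recentring (limma adjusted p = 0.044). The call was not firm. It was lost on leaving out WT replicate 1, 3, 4 or 5 or RhoB-/- replicate 1, 2 or 5, with log2 fold changes of -0.63 to -0.44 and limma adjusted p of 0.0191 to 0.0868 over the 10 fits that each leave out 1 library.

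Gclc and Gclm encode the catalytic and the modifier subunit of glutamate-cysteine ligase, which makes the first and rate-limiting step of glutathione synthesis. Gclc had 31.0, 38.9, 47.4, 50.2 and 43.8 TPM in WT against 28.3, 29.9, 35.1, 35.3 and 36.4 TPM in RhoB-/- mice. Only WT replicate 1 lay within the RhoB-/- range. Its log2 fold change was -0.34 (standard error 0.14, 95% interval -0.63 to -0.04), whose limma adjusted p of 0.0971 missed the threshold. Without WT replicate 1 it was -0.44 and called (limma adjusted p = 0.0258). Gclm had 53.4, 64.8, 64.2, 69.0 and 53.2 TPM in WT against 55.2, 51.4, 57.9, 66.0 and 73.9 TPM in RhoB-/- mice. Both groups had a mean of 60.9 TPM, with a log2 fold change of -0.01 (95% interval -0.27 to 0.26, limma adjusted p = 0.981). Gm6061, a transcribed pseudogene that overlaps Gclm on the same strand, had a mean of 1.06 TPM. Its reads could be counted in part with Gclm.

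The ratio of the catalytic to the modifier subunit was lower in RhoB-/- mice. It was 0.694 ± 0.102 (SD, n = 5) in WT against 0.545 ± 0.0476 (SD, n = 5) in RhoB-/- mice, a difference of -0.34 on the log2 scale (exact two-sided permutation test, p = 0.0317, and 0.0423 adjusted over 4 ratios). The ranges, 0.581 to 0.823 and 0.492 to 0.607, overlapped. Leaving out RhoB-/- replicate 1, 4 or 5 gave an unadjusted p of 0.0635 in the same exact permutation test, with log2 differences between -0.40 and -0.28 over the 10 libraries left out.

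Gpx1 and Gpx2 encode cytosolic glutathione peroxidases, selenoproteins that reduce hydrogen peroxide, of which Gpx2 is known for its expression in the gut epithelium. They were the most abundant of the 10 genes in both genotypes. Gpx1 had 298.4, 367.0, 324.0, 345.4 and 329.3 TPM in WT against 285.3, 277.1, 441.2, 321.9 and 368.6 TPM in RhoB-/- mice. Gpx2 had 384.5, 389.5, 301.9, 370.1 and 325.5 TPM in WT against 429.1, 310.7, 586.4, 361.9 and 322.0 TPM in RhoB-/- mice. RhoB-/- replicate 3 was the highest of the 10 libraries for both genes, and the groups overlapped. The log2 fold changes were 0.01 for Gpx1 (95% interval -0.29 to 0.30, limma adjusted p = 0.975) and 0.15 for Gpx2 (95% interval -0.22 to 0.52, limma adjusted p = 0.552). The ratio of Gpx2 to Gpx1 was 1.07 ± 0.136 (SD, n = 5) in WT against 1.19 ± 0.238 (SD, n = 5) in RhoB-/- mice, and the difference missed the threshold (exact two-sided permutation test, p = 0.381). Gpx2 overlaps Fntb on the opposite strand, whose mean was 7.499 TPM, and the strand setting of the counting is not given in the sources used here. The processed copies Gpx2-ps1 and Prdx1-ps had at most 0.44 and 0 TPM.

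Nfe2l2 itself was abundant in the epithelial cells. It had 108.6, 123.8, 133.9, 132.6 and 144.8 TPM in WT against 95.9, 93.2, 124.4, 117.5 and 118.2 TPM in RhoB-/- mice. Means were 128.7 ± 13.5 TPM (SD, n = 5) and 109.8 ± 14.3 TPM (SD, n = 5), and the groups overlapped. The log2 fold change was -0.23 (95% interval -0.49 to 0.03, limma adjusted p = 0.178). Nfe2l2 and Gclc were called lower under quantile normalization and when mitochondrially encoded genes were left out of the TPM, and Nfe2l2 was not called on recentring (log2 fold change -0.12, limma adjusted p = 0.358).

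Keap1, which encodes the repressor of Nrf2, had a mean of 21.3 ± 1.56 TPM (SD, n = 5) in WT against 27.5 ± 3.78 TPM (SD, n = 5) in RhoB-/- mice, with a log2 fold change of 0.34 (limma adjusted p = 0.0449). This call was lost in 8 of the 10 fits that leave out 1 library, all but those without RhoB-/- replicate 1 or 2, with a limma adjusted p of up to 0.104, while recentring gave 0.46 (limma adjusted p = 0.00133). The ratio of Nfe2l2 to Keap1 within a library separated the genotypes. It was 5.33, 5.37, 6.26, 5.89 and 7.53 in WT against 4.19, 3.88, 3.96, 3.91 and 4.10 in RhoB-/- mice, lower in every RhoB-/- library. The log2 difference was -0.59 (exact two-sided permutation test, p = 0.00794, the smallest that 5 libraries against 5 allow, and 0.0159 adjusted over 4 ratios). It lay between -0.63 and -0.51 when any 1 library was left out. A ratio of mRNAs shows unequal change of the genes and says nothing of the proteins.

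**Figure D3:**
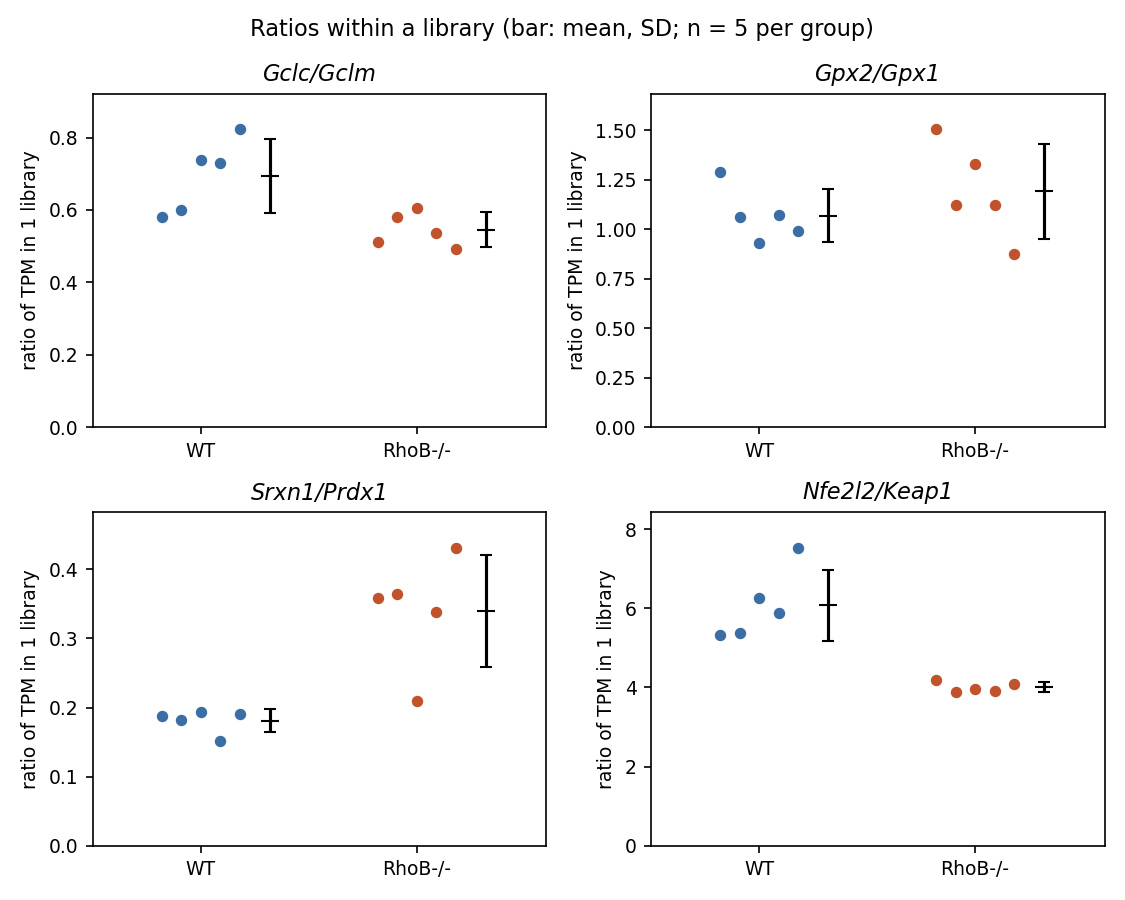
Ratios of TPM values within a library (vertical axes, from 0) in 5 WT (blue) and 5 RhoB-/- (orange) libraries, 1 point per library, with the mean and SD as a bar. The groups do not overlap for Srxn1/Prdx1 (0.151 to 0.194 against 0.210 to 0.431) and for Nfe2l2/Keap1 (5.33 to 7.53 against 3.88 to 4.19), and overlap for Gclc/Gclm and Gpx2/Gpx1.

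By mean TPM, the order in WT mice was Gpx2, Gpx1, Prdx1, Nfe2l2, Txnrd1, Gclm, Nqo1, Srxn1, Gclc and Hmox1. Neighbours in this order had separate ranges only between Prdx1 and Nfe2l2, Txnrd1 and Gclm, and Gclc and Hmox1. In RhoB-/- mice Srxn1 moved from place 8 to place 6, above Gclm and with a range separate from it, while Txnrd1 and Nfe2l2 exchanged places with overlapping ranges. Within the groups some libraries stood high or low for several genes at once. RhoB-/- replicate 2 was the lowest of its group for 6 of the 10 genes and RhoB-/- replicate 3 the highest for 5, and their mitochondrially encoded genes took 22.4% and 10.3% of all TPM, the highest and the lowest share of the group. WT replicate 1, with the highest share of the WT group (26.5%), was the lowest of WT for 4 genes. Whether this share plays a part in the levels of the 10 genes was not tested.

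After the genotype means were subtracted, the closest pair of the 10 genes over the 10 libraries was Nfe2l2 and Gclc (Pearson r = 0.83), followed by Gpx1 and Prdx1 (r = 0.80), and the least alike were Srxn1 and Gpx2 (r = -0.64). Among 7002 other genes with a mean of at least 10 TPM, those most like Nfe2l2 were Acaa2 (r = 0.97), Ppp2r2d (r = 0.96) and Gm13370 (r = 0.96). For Hmox1, the gene with the largest difference of the 10, they were Cbr1 (r = 0.92), Tsku (r = 0.87) and Gstt1 (r = 0.87). These values are extremes picked from many pairs and describe 10 libraries that share their scaling. No test was made of them.

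The other genes of the pathway were grouped in 7 lists of 101 genes, of which 93 were tested. Of these, 7 were higher and 21 lower in RhoB-/- mice (30.1%, beside 21.2% of all tested genes), with a median log2 fold change of -0.14. The lower genes gathered in the list of detoxification enzymes and exporters, with 12 of its 24 tested genes lower and none higher. No other list had more than 3 in either direction. The lists were chosen with earlier results of these data known, so these shares are a description and not a test. Of the 28 calls, 15 held in all 10 fits that leave out 1 library. Genes of the Gstm, Gsta and Gstp families are near copies of each other, so that reads may have been divided among them.

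**Figure D4:**
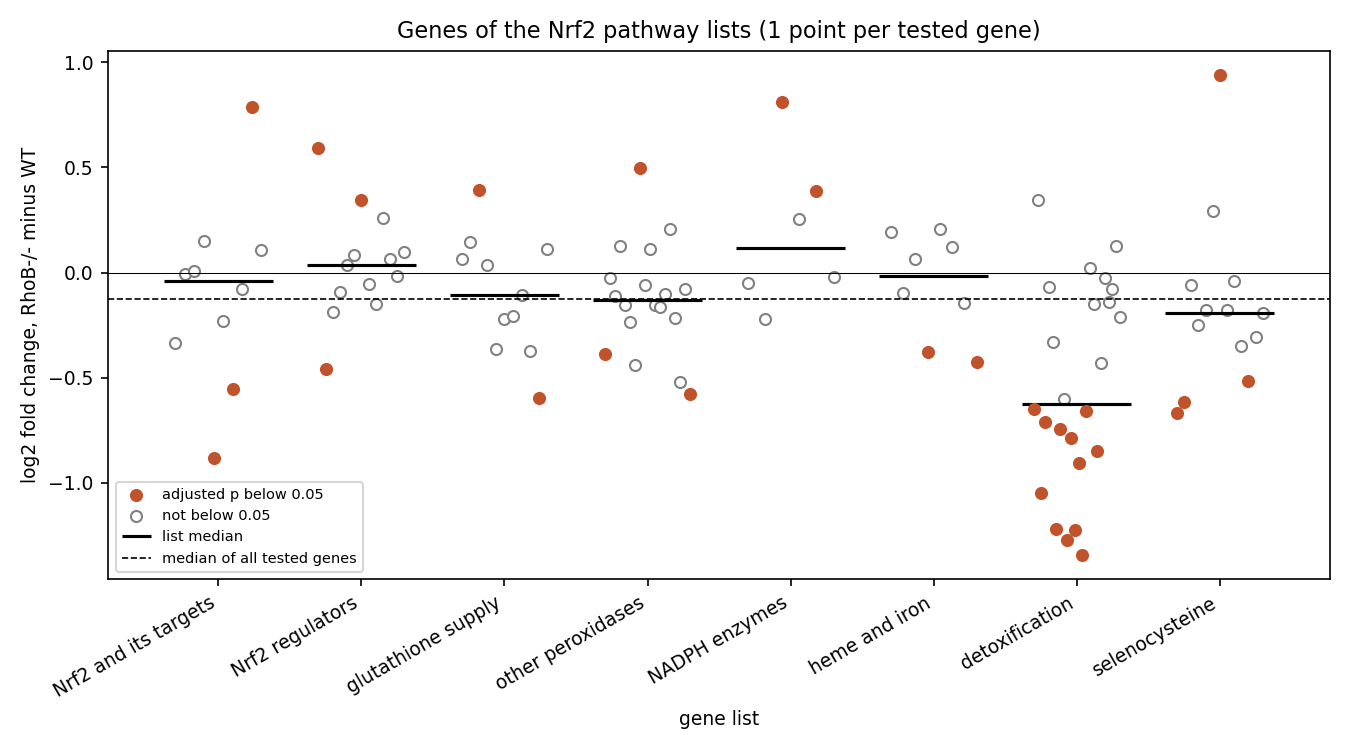
Log2 fold change (RhoB-/- minus WT, vertical axis) of every tested gene in 8 groups of genes, the 10 genes first and the 7 pathway lists after them. Filled points have an adjusted p below 0.05, short bars are list medians and the dashed line is the median of all tested genes; the detoxification list has 12 filled points below 0 and a median of -0.63.

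In the detoxification list the median log2 fold change was -0.63. With no overlap between the groups, 9 of its 24 tested genes were lower, beside 8.55% of all tested genes. Of 12 tested glutathione transferases, which couple glutathione to electrophiles, 7 were lower and none higher, beside 13.5% and 7.73% of all tested genes. Gstm3 had 92.3, 103.1, 104.0, 134.2 and 95.9 TPM in WT against 31.9, 36.3, 49.1, 44.1 and 44.97 TPM in RhoB-/- mice, and Gstm1 had 238.1, 280.9, 215.0, 317.7 and 221.3 TPM in WT against 79.7, 108.8, 124.8, 120.1 and 109.4 TPM in RhoB-/- mice. In both, the lowest WT library was far above the highest RhoB-/- library. The log2 fold changes were -1.34 for Gstm3 (standard error 0.14, limma adjusted p = 7.06e-05) and -1.22 for Gstm1 (standard error 0.15, limma adjusted p = 2.32e-04). Gsta3 (-1.27), Gstm2 (-0.90) and Gstm4 (-0.66) were also lower without overlap, with a limma adjusted p of 0.00101, 0.0012 and 0.00682. Mgst1, a membrane-bound transferase, had a log2 fold change of -0.85 and overlapped only through RhoB-/- replicate 3. Gsta4 had a log2 fold change of -0.79, and its call was lost without WT replicate 4 or RhoB-/- replicate 5, with a limma adjusted p of up to 0.0555.

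Among the other enzymes, Cbr3, a carbonyl reductase, had 72.6 to 92.5 TPM in WT against 21.1 to 63.7 TPM in RhoB-/- mice (log2 fold change -1.22, limma adjusted p = 0.00436). Ephx1, the microsomal epoxide hydrolase, had a log2 fold change of -0.74 (limma adjusted p = 0.00733). Akr1b8, an aldo-keto reductase, had -0.71 (limma adjusted p = 0.0277), but this call was lost without WT replicate 1, 3 or 4 or RhoB-/- replicate 1, 2 or 5 and after recentring, with a limma adjusted p of up to 0.0683. The exporters Abcc4 and Abcc1, which carry conjugates out of the cell, had log2 fold changes of -1.05 and -0.65 (limma adjusted p = 0.00309 and 0.0137), both without overlap. Between 10 and 12 genes of the list were lower in the fits that leave out 1 library. The count was 10 without WT replicate 4 and 10 without RhoB-/- replicate 5. Recentring left 11 lower and 1 higher. It was 10 lower without the filter, and 14 lower under quantile normalization and when mitochondrially encoded genes were left out.

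**Figure D5:**
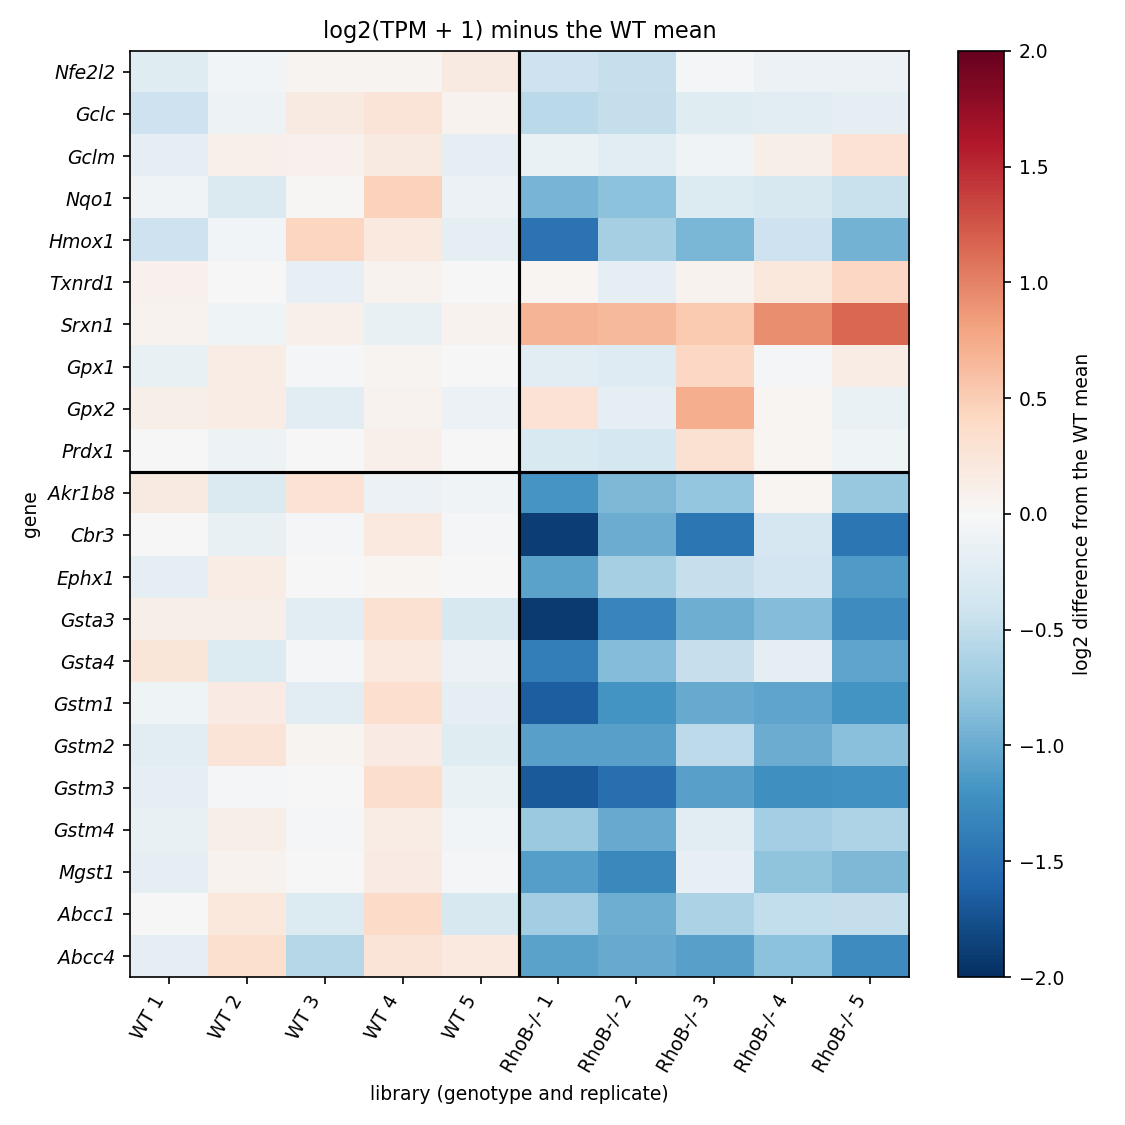
Log2(TPM + 1) minus the WT mean (colour, from -2 in blue to 2 in red) in each of the 10 libraries, for the 10 genes (upper block) and the 12 called detoxification genes (lower block). The lower block is blue in nearly all RhoB-/- libraries, while in the upper block Srxn1 is red in all 5, Hmox1, Nqo1, Gclc and Nfe2l2 are blue in all 5 (palest in Nfe2l2), and the other 5 genes are mixed.

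NADPH is the reductant of Nqo1, Txnrd1 and glutathione reductase. The list called NADPH enzymes here also holds genes of the pentose phosphate pathway, such as Taldo1, that do not make NADPH themselves. Of the 6 genes tested in this list, 2 were higher and none lower, a share of 33.3% beside 21.2% of all tested genes called. Among those that make NADPH, Me1 was the only one called. Me1, the cytosolic malic enzyme, had 17.1, 10.6, 14.7, 11.3 and 16.1 TPM in WT against 22.9, 22.5, 18.2, 36.2 and 27.6 TPM in RhoB-/- mice. All RhoB-/- libraries were above all WT libraries, with a log2 fold change of 0.81 (standard error 0.18, limma adjusted p = 0.0104). Of the 6 genes of the list, Taldo1, a transaldolase, was the only other one called (log2 fold change 0.39, limma adjusted p = 0.0428), in 2 of the 10 fits that leave out 1 library, those without WT replicate 3 or RhoB-/- replicate 2, and with a limma adjusted p of up to 0.108 in the others. G6pdx, the glucose-6-phosphate dehydrogenase of the pentose phosphate pathway, had a log2 fold change of -0.05 (limma adjusted p = 0.805).

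Among 13 tested regulators and partners of Nrf2, 2 were higher and 1 lower, a share of 23.1% beside 21.2% of all tested genes called. Bach1, a repressor that competes with Nrf2 for small Maf partners and for sites near Hmox1, had 10.3, 12.5, 10.6, 10.7 and 12.8 TPM in WT against 21.0, 15.9, 13.4, 14.6 and 25.8 TPM in RhoB-/- mice. The groups did not overlap (log2 fold change 0.59, limma adjusted p = 0.0251), and the call was lost without WT replicate 4 or RhoB-/- replicate 1 (limma adjusted p up to 0.0647). Keap1 was the other higher gene. Btrc, which encodes the substrate receptor of a second ligase for Nrf2, was lower (log2 fold change -0.46, limma adjusted p = 0.0207), but was not called without WT replicate 4 or RhoB-/- replicate 1 or 4 (limma adjusted p up to 0.0596). Mafg, a small Maf partner, had a log2 fold change of -0.15 (limma adjusted p = 0.485).

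In glutathione supply and recycling, 1 of 11 tested genes was higher and 1 lower, a share of 18.2% beside 21.2% of all tested genes called. Slc1a5, which carries glutamine into the cell, had 67.4 to 100.6 TPM in WT against 50.7 to 70.6 TPM in RhoB-/- mice (log2 fold change -0.60, limma adjusted p = 0.0123). Glrx, a glutaredoxin, was higher without overlap (log2 fold change 0.39, limma adjusted p = 0.0238), a call lost without WT replicate 4 or RhoB-/- replicate 5 (limma adjusted p up to 0.0641). Gsr, glutathione reductase, had a log2 fold change of -0.21 (limma adjusted p = 0.289). Slc7a11, the cystine carrier, was below the filter with 0.13 to 0.50 TPM in WT against 0.29 to 0.77 TPM in RhoB-/- mice, and was not tested.

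Of 18 other tested peroxidases, thioredoxins and dismutases, 1 was higher and 2 were lower, a share of 16.7% beside 21.2% of all tested genes called. Prdx5, a peroxiredoxin of mitochondria, peroxisomes and cytosol, was higher (log2 fold change 0.50, limma adjusted p = 0.0267) and Txnrd3, a thioredoxin and glutathione reductase, lower (-0.58, limma adjusted p = 0.00621), both without overlap. The call of Prdx5 was lost without WT replicate 1, 4 or 5 or RhoB-/- replicate 4 or 5 (limma adjusted p up to 0.0654). Catalase, Cat, had a log2 fold change of -0.39 (limma adjusted p = 0.0441), but was called in 3 of the 10 fits that leave out 1 library, those without WT replicate 1 or RhoB-/- replicate 3 or 5, with a limma adjusted p of up to 0.117 in the others, and had a limma adjusted p of 0.0646 after recentring. Gpx4, which reduces lipid peroxides, had a log2 fold change of -0.11 (limma adjusted p = 0.575), and Txn1, thioredoxin itself, had 0.21 (limma adjusted p = 0.238).

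For heme, the substrate of Hmox1, and iron, one of its products, 2 of 8 genes were lower and none higher, a share of 25.0% beside 21.2% of all tested genes called. The count fell to 0 without WT replicate 4 or RhoB-/- replicate 1 or 4 and with a replicate block. Fech, which inserts iron into heme, had a log2 fold change of -0.38 (limma adjusted p = 0.0186), and Slc48a1, a heme transporter, had -0.42 (limma adjusted p = 0.0273). The call of Fech was lost without WT replicate 4 or RhoB-/- replicate 1 or 4 (limma adjusted p up to 0.0569), and that of Slc48a1 without WT replicate 2, 4 or 5 or RhoB-/- replicate 1, 2, 4 or 5 (limma adjusted p up to 0.0755). Fth1, the ferritin heavy chain, which stores iron, had 2458 to 4607 TPM in WT against 3104 to 5216 TPM in RhoB-/- mice (log2 fold change 0.21, limma adjusted p = 0.469).

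Gpx1, Gpx2 and Txnrd1 need selenocysteine. Of 13 tested genes that serve to make or place it, or encode other proteins that hold it, 3 were lower and 1 higher. This is a share of 30.8% beside 21.2% of all tested genes called. The 3 lower genes serve to make or place it, and the 1 higher, Selenop, encodes a protein that holds it. Eefsec, the elongation factor that delivers selenocysteine, was lower without overlap (11.8 ± 0.882 TPM in WT against 7.23 ± 1.80 TPM in RhoB-/- mice, SD, n = 5, log2 fold change -0.67, limma adjusted p = 0.0111). Pstk, which modifies the tRNA on the way to selenocysteine, had a log2 fold change of -0.62 (limma adjusted p = 0.0116), and Sephs2, which makes the selenium donor, had -0.51 (limma adjusted p = 0.0183), the last not called without WT replicate 4 (limma adjusted p = 0.0532). Selenop, a secreted selenium carrier, had 77.5, 192.6, 172.3, 111.7 and 183.1 TPM in WT against 218.2, 351.9, 191.4, 344.0 and 275.3 TPM in RhoB-/- mice. The groups overlapped only through RhoB-/- replicate 3 and WT replicate 2 (log2 fold change 0.94, limma adjusted p = 0.0263), and the call was lost without WT replicate 4 or RhoB-/- replicate 2, 4 or 5 (limma adjusted p up to 0.0692).

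Rhob was at 170.5 to 388.7 TPM in WT libraries and at most 0.57 TPM in RhoB-/- replicates 1 to 4, while the library labelled RhoB-/- replicate 5 had 110.9 TPM. Without that library the 10 genes gave 1 higher and 1 lower call, Nqo1 being lost (limma adjusted p = 0.0562) and Hmox1 kept at a log2 fold change of -0.87 (limma adjusted p = 0.0329). Epithelial markers were abundant in every library, with a summed TPM of 26516 to 30559 in WT against 26359 to 43379 in RhoB-/- mice. In the main fit 3 of 11 were higher in RhoB-/- mice (6 of 11 after recentring), beside 7.73% of all tested genes. Krt20 was among them, with a log2 fold change of 1.17. Of these 3, Cdx2 was called in 2 of the 10 fits that leave out 1 library, those without WT replicate 1 or RhoB-/- replicate 2 (limma adjusted p up to 0.104 in the others). Summed immune markers were higher in RhoB-/- mice (19.9 to 40.6 TPM beside 6.77 to 11.5 TPM in WT). Of the 6 tested ones 5 were called higher, beside 7.73% of all tested genes, while 6 lay under the filter. The filter takes the mean over all 10 libraries, so a low gene can pass it through the RhoB-/- libraries alone. Cd68 and Lyz2, with WT means under 1 TPM, passed in this way. Such passing can raise the share called higher, so the 2 shares are not a like comparison. The 5 were Ptprc, the T cell markers Cd3e, Cd3g and Cd8a, and Cd68. Each was called higher in all 10 fits that leave out 1 library. Macrophage markers were low but not alike. Cd68 was higher without overlap, with a mean of 0.988 TPM in WT against 3.74 TPM in RhoB-/- mice (log2 fold change 1.19, limma adjusted p = 0.0154). Lyz2 had means of 0.868 and 2.40 TPM (limma adjusted p = 0.0676), Csf1r of 0.184 and 0.466 TPM and Adgre1 of 0.024 and 0.494 TPM, the last 2 under the filter, and Cd163 was at most 0.03 TPM in every library. Summed stromal markers had 6.51 to 36.5 TPM in RhoB-/- mice beside 4.25 to 5.33 TPM in WT. Of the 2 tested, 1 was called higher, beside 7.73% of all tested genes, a share with the same limit from the filter. Of 8 crypt and proliferation markers 2 were lower, beside 13.5% of all tested genes. These calls were not firm, as Mki67 was lost without WT replicate 1, 2 or 4 or RhoB-/- replicate 2, 4 or 5 (limma adjusted p up to 0.0808) and Mcm5 without WT replicate 1, 2, 4 or 5 or RhoB-/- replicate 1, 2 or 5 (limma adjusted p up to 0.101), and both without the filter. None of 5 erythroid genes was called (limma adjusted p from 0.6 to 0.731). Of 7 heat shock genes 6 were lower in RhoB-/- mice, beside 13.5% of all tested genes. Hspa1a had 712.6 to 1065 TPM in WT against 38.4 to 71.7 TPM in RhoB-/- mice. None of 7 immediate-early genes was called (limma adjusted p from 0.287 to 0.982). The part of these cells and of the heat shock genes in the levels of Hmox1, Bach1, Selenop and the other genes described here was not tested. In such bulk samples fewer cells of a type and less RNA per cell cannot be told apart.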

How the data were processed

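RNA-seq libraries of colonic IECs (5 WT, 5 RhoB-/-) were grouped by the genotype and replicate number of the sample labels. The authors trimmed paired-end reads with SeqPrep and Sickle and, per the labels, used HISAT2, StringTie and RSEM on GRCm38.p6. Their versions and the annotation are not given in the sources used here. The deposited TPM values of each gene and library were used as the authors gave them. TPM is relative to each library and keeps no depth, so depth and counting error are unknown.

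log2(TPM + 1) of the 12870 genes whose mean was 1 TPM or more was fitted with limma 3.58.1 (lmFit, eBayes with an intensity trend) in R 4.3.3, RhoB-/- minus WT, two-sided, with Benjamini-Hochberg adjustment over all of them. The fit was tested on simulated data. Ratios within a library were compared by an exact two-sided permutation test. Errors are SD between libraries. Nothing in the labels ties the libraries to single mice, litters or cages. Tables and figures were made with Python 3.11.15, numpy 2.4.6 and matplotlib 3.10.9.

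The 10 genes, the pathway lists and the tests were chosen with earlier results of these data known. The text names the 10 genes, Rhob, list genes called with a fold change above 1.5, and Keap1, Mafg, Bach1, Slc7a11, Gsr, Gpx4, Txn1, Cat, G6pdx and Fth1. It also names the 3 genes most like Nfe2l2 and Hmox1 by correlation. Of the immune markers, Ptprc, Cd3e, Cd3g, Cd8a, Cd68, Lyz2, Csf1r, Adgre1 and Cd163 were named after their values were seen. Krt20, Cdx2, Mki67, Mcm5 and Hspa1a were named for their difference between genotypes. The remaining called genes of short lists (Btrc, Glrx, Prdx5, Txnrd3, Taldo1, Fech, Slc48a1 and Sephs2) were named after their values were seen. Positions are from GENCODE M21 on GRCm38, where 55141 of 55487 gene identifiers were found, and promoters from RefSeq (GRCm38.p6). The alternatives were a pseudocount of 0.1, no filter, recentring, quantile normalization, leaving out mitochondrially encoded genes, a replicate block, no intensity trend and each library left out.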

Additional observations from a re-analysis of the deposited data

Results flagged for a closer look

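Each gene and ratio was looked at in each genotype for a library that stood apart from the other 4 of its group by Dixon's test, over 30 groups of 5 values. Chance alone flags about 1 in 20 such groups, about 1.5 here, and 2 were found. The groups are not independent, as the ratios reuse the levels of the genes, so this count does not weigh either flag. The Rhob level of 110.87 TPM in RhoB-/- replicate 5 stood apart from the other RhoB-/- libraries, which had at most 0.57 TPM. Its gap to the next library was 0.996 of the range. The ratio of Srxn1 to Prdx1 of 0.1512 in WT replicate 4 was lower than the 0.182 to 0.194 of the other WT libraries, with a gap of 0.731 of the range.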

How the results depend on the processing

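The calls of Srxn1 and Hmox1 and the higher count of the 10 genes were unchanged in all 17 alternative fits. The lower count of the 10 genes was 1 without the filter and 4 under quantile normalization or without mitochondrially encoded genes. Without the filter the counts were 0 higher and 2 lower for Nrf2 regulators, 0 higher and 1 lower for peroxidases, 1 higher for NADPH enzymes, 1 lower for heme and iron, and 0 higher for selenocysteine genes. Recentring gave 2 higher and 1 lower peroxidases, 1 higher detoxification gene, 2 higher selenocysteine genes and 2004 higher genes in all. Quantile normalization gave 2 lower glutathione genes, 2 higher and 4 lower peroxidases, and 1587 higher genes in all. Without mitochondrially encoded genes 2 glutathione genes, 5 peroxidases, 7 selenocysteine genes and 3729 of all genes were lower. Without the intensity trend 1 Nrf2 regulator was higher and 1 peroxidase lower. The cause of these shifts was not tested.

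Both genotypes share the replicate numbers 1 to 5, but nothing says that a number marks a shared animal, litter or day. The deviations of same-numbered libraries had correlations of -0.09 to 0.07. Such values cannot exclude a shared litter or day of small effect, so whether the numbers pair the libraries is not known. With the replicate block 1 Nrf2 regulator was higher and 0 lower, 1 peroxidase lower, 1 NADPH enzyme higher, 0 heme and iron genes lower and 1059 of all genes lower, and the ratios kept their log2 differences (Gclc/Gclm -0.34, Srxn1/Prdx1 0.88, Nfe2l2/Keap1 -0.59) with an exact sign-flip p of 0.0625, the smallest that 5 pairs allow.

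Leaving out 1 library gave 1 to 2 lower calls among the 10 genes. The counts were 0 to 2 higher and 0 to 1 lower for Nrf2 regulators, 0 to 1 higher and 1 to 4 lower for glutathione, 0 to 1 higher and 1 to 5 lower for peroxidases, 1 to 2 higher for NADPH enzymes, 0 to 2 lower for heme and iron, 0 to 1 higher for detoxification, and 0 to 1 higher and 2 to 7 lower for selenocysteine. Over all genes it gave 719 to 1154 higher and 853 to 2868 lower, the lower count being 950 without WT replicate 2, 853 without WT replicate 4, 985 without RhoB-/- replicate 1, 2868 without RhoB-/- replicate 3 and 1116 without RhoB-/- replicate 5. Gclc/Gclm ranged from -0.40 to -0.28. Gclm, Gpx1 and Prdx1, which were near 0 and not called, changed sign. Gclm was 0.11 on recentring and -0.077 to 0.052 on leaving out 1 library. Gpx1 was -0.10 under quantile normalization, -0.069 without mitochondrially encoded genes and -0.093 to 0.074 on leaving out 1 library. Prdx1 was 0.035 on recentring.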
